A study of Mus musculus with 6 samples.

Results

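Cholesterol handling was followed through 32 genes of the 32285 genes counted in nuclei of the mouse septal area. The genes were taken by name: 18 encode enzymes of cholesterol synthesis, 5 belong to the sterol sensing system built on the SREBP transcription factors, 4 serve uptake and intracellular transport, and 5 serve export, storage and turnover. The samples were 6 libraries labelled as wild type brain, septal area, with no treatment, age or sex given, and all 6 form 1 group. The barcodes are called nuclei after the series title, although the protocol text speaks of cells. Droplets gave each nucleus a barcode and each captured RNA molecule a unique molecular identifier (UMI). Comparisons were therefore made between classes of nuclei within the same 6 libraries.

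Cholesterol is made from acetyl-CoA through mevalonate, isoprenoids and squalene, and then by a chain of sterol enzymes. When sterols in the endoplasmic reticulum are low, Scap escorts SREBP proteins to the Golgi for cleavage, and the released factors raise transcription of the synthesis genes; Insig proteins hold the complex back when sterols are plentiful. The blood-brain barrier keeps plasma lipoproteins out, so the brain makes its own cholesterol. Astrocytes are known for releasing it on lipoproteins built on apolipoprotein E, oligodendrocytes for using it in myelin, and neurons for clearing it as 24-hydroxycholesterol.

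Promoters of the genes are described here, and whether their motifs bear on the differences that follow was not tested. Windows of 250 bases before to 50 bases after the start were matched by symbol for 26 of the 32 genes, from RefSeq with build GRCm38.p6. The motifs searched, on both strands, were TCACNCCAC (a sterol regulatory element, bound by SREBP), CCAAT (bound by NF-Y) and GGGCGG (bound by Sp1), with matches of different motifs allowed to overlap. CCAAT was found in 21 of the 26 genes and in 14 of the 15 synthesis genes with a window, against 41.1% of all genes, and GGGCGG in 24 and 14 of them, against 38.2%. TCACNCCAC was found in Hmgcs1 and in no other of the 26, against 1.44% of all genes. Some genes have several windows (32851 windows for 27025 genes in all), and a gene counted if any of them held the motif. Dhcr7, Insig2, Srebf1 and Pmvk counted for CCAAT in this way, with further windows that held none. Outside synthesis, CCAAT was found in Soat1, Cyp46a1, Npc2, Srebf1, Srebf2, Insig1 and Insig2, and the synthesis gene Acat2 had none. The promoters of 3 synthesis enzymes that recur in the results are given 5′ to 3′ beside that of the exporter Abca1. The Abca1 window holds no CCAAT and does not stand for the genes outside synthesis. Capitals mark TCACNCCAC and CCAAT, with CCAAT read as ATTGG where it lies on the other strand.
Hmgcs1, chr13:119690101-119690400, plus strand: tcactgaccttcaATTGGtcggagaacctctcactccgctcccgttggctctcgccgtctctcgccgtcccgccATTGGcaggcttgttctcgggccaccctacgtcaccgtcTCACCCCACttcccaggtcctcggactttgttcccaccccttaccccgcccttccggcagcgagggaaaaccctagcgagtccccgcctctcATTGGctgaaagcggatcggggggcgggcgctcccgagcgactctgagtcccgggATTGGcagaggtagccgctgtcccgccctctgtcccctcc
Idi1, chr13:8885356-8885655, plus strand: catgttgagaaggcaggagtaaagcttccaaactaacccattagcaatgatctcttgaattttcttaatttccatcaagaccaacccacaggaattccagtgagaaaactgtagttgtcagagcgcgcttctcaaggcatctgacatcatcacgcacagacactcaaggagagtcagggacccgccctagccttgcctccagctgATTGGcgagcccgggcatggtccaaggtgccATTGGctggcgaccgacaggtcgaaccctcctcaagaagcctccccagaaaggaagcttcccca
Msmo1, chr8:64733529-64733828, minus strand: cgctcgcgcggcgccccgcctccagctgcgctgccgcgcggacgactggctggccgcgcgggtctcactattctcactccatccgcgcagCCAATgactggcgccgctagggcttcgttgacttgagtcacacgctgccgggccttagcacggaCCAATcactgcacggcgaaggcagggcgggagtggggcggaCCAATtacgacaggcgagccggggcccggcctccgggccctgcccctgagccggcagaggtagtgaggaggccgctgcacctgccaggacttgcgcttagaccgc
Abca1, chr4:53159846-53160145, minus strand: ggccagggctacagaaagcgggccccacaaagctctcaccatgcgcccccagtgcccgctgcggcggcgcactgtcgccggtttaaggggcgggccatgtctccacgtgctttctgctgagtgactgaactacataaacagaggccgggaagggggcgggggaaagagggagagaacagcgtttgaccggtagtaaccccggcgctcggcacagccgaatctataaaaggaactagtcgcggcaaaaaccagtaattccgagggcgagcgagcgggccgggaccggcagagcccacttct
Hmgcs1 holds the TCACNCCAC match 137 bases before the start and 4 CCAAT matches, Msmo1 holds 3 CCAAT matches and Idi1 holds 2. A match is a run of letters, and no binding was measured.

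The libraries held 7393 to 11134 barcodes and 70183544 to 95175260 UMIs each. Of 55537 barcodes, 54623 had 500 or more detected genes, and 36023 of these (65.9%) fell into a class by marker genes. The classes hold 19311 neuron-like, 8258 astrocyte-like, 5419 oligodendrocyte-like, 1063 ependymal-like, 851 microglia-like, 614 endothelial-like, 342 oligodendrocyte precursor-like and 162 pericyte or smooth muscle-like nuclei. Among the neurons, 14718 were GABAergic-like, of them 10214 lateral septum-like, 224 striatal-like and 124 medial septum-like. Apart from these stood 691 glutamatergic-like nuclei, 411 Maf Elavl2 interneurons and 180 cholinergic nuclei, with Chat and Slc5a7, the acetylcholine synthase and the choline transporter. In the classes gated by marker lists all markers were detected, at 3 CPM (UMIs per 1000000 UMIs of the class in a sample) or more except Pvalb in medial septum-like nuclei. Slc18a3, the vesicular acetylcholine transporter, was low in the cholinergic nuclei, at 1.59 ± 1.40 CPM on 6 UMIs. Neuron markers stood in astrocyte-like nuclei at 3.47 to 12.4% of their neuron level, and astrocyte markers in neuron-like nuclei at 0.992 to 3.84% of their astrocyte level. The class rule itself limited these shares, so they are no measure of carried-over RNA for other genes. The spans of Fdps and Tm7sf2, introns included, overlap that of another protein-coding gene on the same strand. Those of Cyp51, Fdft1, Mvd, Npc1 and Srebf1 overlap one on the other strand. Overlap of exons was not looked at, and whether counting used strand is not stated, so reads of these 7 may be shared with their neighbours.

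The 18 synthesis genes were a larger share of the RNA in astrocyte-like nuclei than in any of the other 12 classes set side by side. Their summed level was 495 ± 36.5 CPM in astrocyte-like nuclei and 316 ± 8.16 CPM in oligodendrocyte-like nuclei (SD, n = 6 samples each), and the samples of these classes did not overlap. Next came cholinergic (289 ± 31.6 CPM), glutamatergic-like (271 ± 14.1 CPM) and medial septum-like nuclei (259 ± 40.2 CPM), which overlapped one another and, for the cholinergic ones, the oligodendrocyte-like nuclei. Maf Elavl2 interneurons had 196 ± 15.6 CPM. The remaining classes lay between 178 ± 89.4 CPM in pericyte or smooth muscle-like and 126 ± 18.3 CPM in microglia-like nuclei, with each neighbour in that order overlapping the next. Of the 18 synthesis genes, 10 had their highest mean level in astrocyte-like nuclei, and 15 of all 32 genes did. Of the other 8 synthesis genes, Mvk, Fdps and Ebp were highest in oligodendrocyte-like nuclei, Tm7sf2 and Sc5d in medial septum-like nuclei, and Cyp51, the lanosterol demethylase, and Dhcr7, the final reductase of one branch, in cholinergic nuclei. The leads of Mvk and Fdps were small, at 106% and 114% of the astrocyte level. All 18 synthesis genes together rest on 535 UMIs in medial septum-like nuclei. Sqle, the squalene epoxidase, was highest in ependymal-like nuclei (17.2, 23.1 and 40.7 CPM as lowest, median and highest sample).

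**Figure D1:**
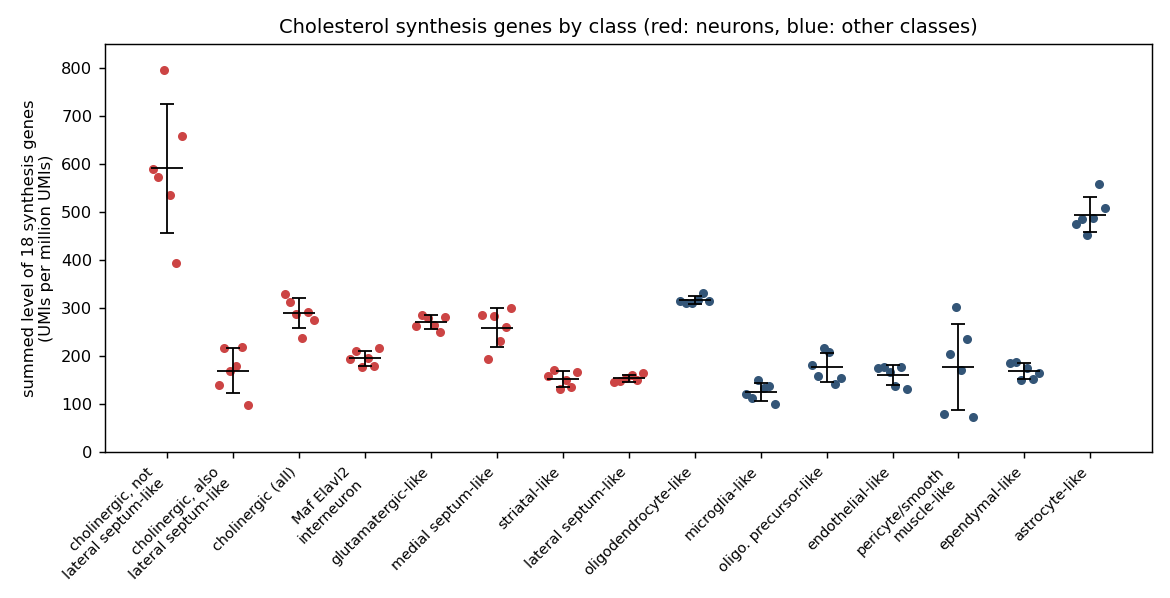
Summed level of the 18 synthesis genes (CPM) in each class, with 1 point per sample and bars for the mean ± SD of 6 samples. Astrocyte-like nuclei lie between 452 and 559 CPM, above every other whole class; the cholinergic nuclei are also drawn split by whether they met the lateral septum-like rule.

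These levels are shares of a nucleus's RNA, and the number of molecules per nucleus gives another order. Neuron-like nuclei held 13594 ± 1341 UMIs of all genes each and astrocyte-like nuclei 4037 ± 427 (mean over samples ± SD, n = 6). Counted per nucleus, the synthesis genes gave 2.38 ± 0.257 UMIs in neuron-like nuclei (2.03 to 2.75 over samples) and 1.99 ± 0.222 UMIs in astrocyte-like nuclei (1.64 to 2.27). The neuron mean was the higher one, so the astrocyte lead is one of RNA share. These ranges overlap, and the 2 classes were not compared per nucleus within samples. Oligodendrocyte-like nuclei had 1.23 ± 0.142, microglia-like 0.341 ± 0.0578 and cholinergic nuclei 5.75 ± 1.13 synthesis UMIs per nucleus.

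**Figure D2:**
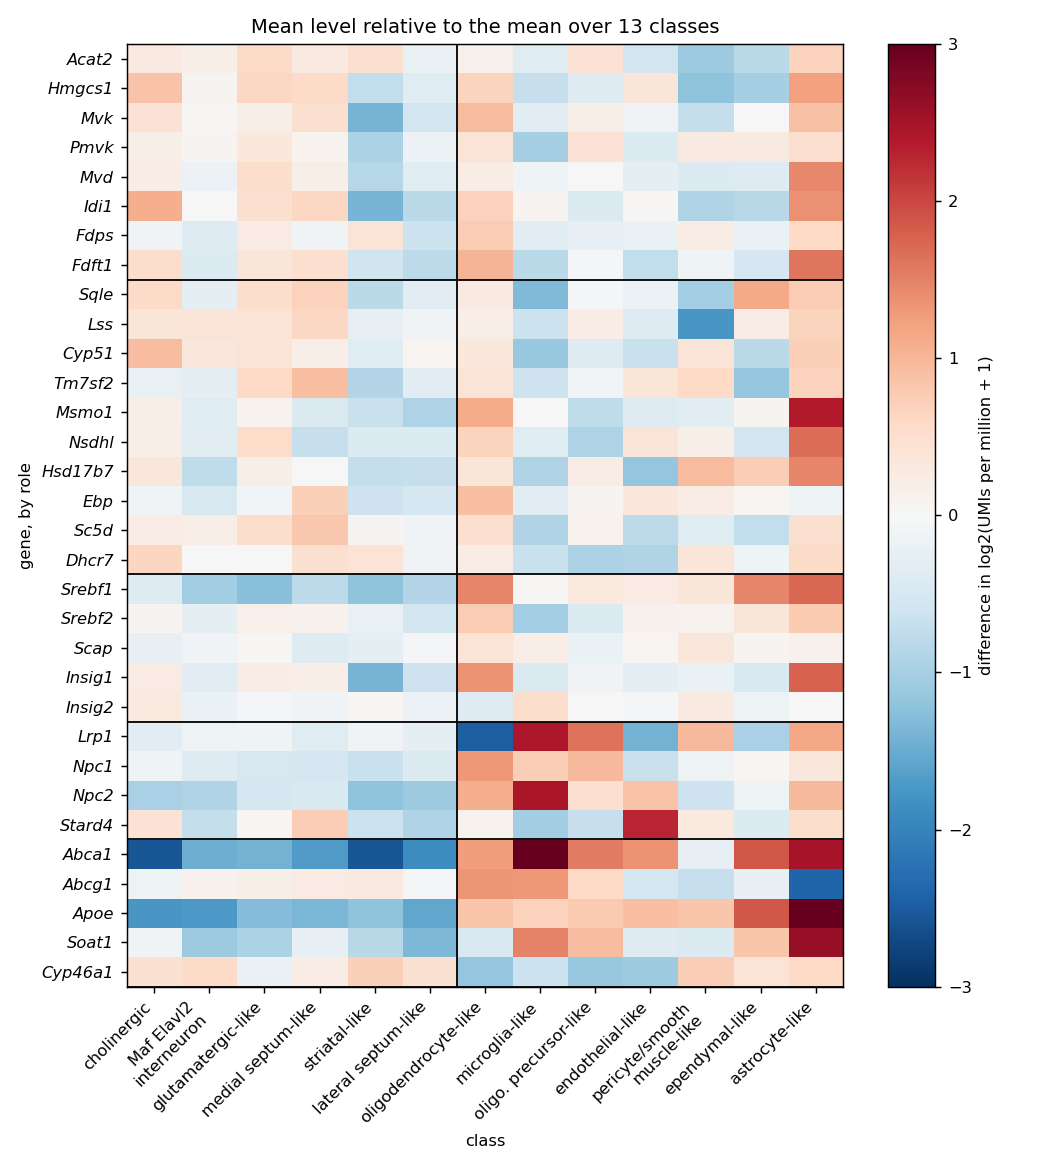
Mean level of each of the 32 genes (rows, by role) in 13 classes (columns) as the difference in log2(CPM + 1) from the gene's mean over the classes, red for higher and blue for lower. Astrocyte-like nuclei are red for most synthesis genes, while Abcg1 is blue there; Lrp1 is deep blue in oligodendrocyte-like and red in microglia-like nuclei.

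Most of the genes were lower in neurons than in astrocytes. Of 32 genes, 27 were lower and 1 was higher in neuron-like nuclei, where 40% of all 17808 genes tested were lower, 41.2% higher and 81.2% one or the other (edgeR's quasi-likelihood test with Benjamini-Hochberg adjusted p under 0.05, samples as blocks). The median log2 difference of the 32 was -1.25, against 0.02 over all genes. All 8 genes before squalene and 9 of 10 from squalene on were lower. Msmo1 oxidises the methyl groups at carbon 4 of the sterol ring. It had 11.9, 12.9 and 13.6 CPM in neuron-like nuclei and 102, 113 and 145 CPM in astrocyte-like nuclei (lowest, median, highest of 6 samples). The classes did not overlap, and the log2 difference was -3.12 ± 0.06 (SE; edgeR's quasi-likelihood test, adjusted p = 1.05e-26). Fdft1, the squalene synthase, had 14.2, 15.8 and 17.2 CPM in neuron-like nuclei and 62.4, 67.4 and 78.5 CPM in astrocyte-like nuclei, again without overlap (log2 difference -2.05 ± 0.05). Idi1, the isopentenyl isomerase, had 2.61, 2.81 and 3.49 CPM in neuron-like nuclei and 11.2, 13.8 and 15.3 CPM in astrocyte-like nuclei (-2.17 ± 0.10). Every neuron sample was below every astrocyte sample for these 3 enzymes. Ebp, the sterol isomerase, was the synthesis gene that missed the threshold (log2 difference -0.35 ± 0.22).

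The lipid-carrying genes showed the widest gap. Apoe had 17.0, 23.2 and 25.1 CPM in neuron-like nuclei and 432, 493 and 640.1 CPM in astrocyte-like nuclei (log2 difference -4.44 ± 0.05; edgeR's quasi-likelihood test, adjusted p = 3.96e-31). Abca1, which loads cholesterol onto apolipoproteins, had 12.4, 12.9 and 13.6 CPM in neuron-like nuclei and 259, 279 and 288 CPM in astrocyte-like nuclei (-4.35 ± 0.04). Neither gene had overlapping samples, and the neuron levels were 4.37% and 4.69% of the astrocyte ones. The part of carried-over RNA in them was not tested. Soat1, which esterifies cholesterol for storage, was lower in neuron-like nuclei by the same test (-3.75 ± 0.05).

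Abcg1, a second exporter that hands cholesterol to lipoproteins, was the gene higher in neurons. It had 28.0, 31.7 and 34.7 CPM in neuron-like nuclei and 3.95, 4.75 and 6.57 CPM in astrocyte-like nuclei, with no overlap (log2 difference 2.71 ± 0.09; edgeR's quasi-likelihood test, adjusted p = 1.58e-20). The astrocyte level was 15.9% of the neuron level and the lowest of the 13 classes, so the exporters Abca1 and Abcg1 differed between these classes in opposite directions. Cyp46a1, the enzyme that makes 24-hydroxycholesterol and is known as neuronal, had 17.3, 18.6 and 20.3 CPM in neuron-like nuclei and 18.1, 19.3 and 24.7 CPM in astrocyte-like nuclei. These overlapped, with a log2 difference of -0.08 ± 0.07 (edgeR's quasi-likelihood test, adjusted p = 0.271), and the astrocyte level was 111% of the neuron one. The part of carried-over RNA in it was not tested.

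**Figure D3:**
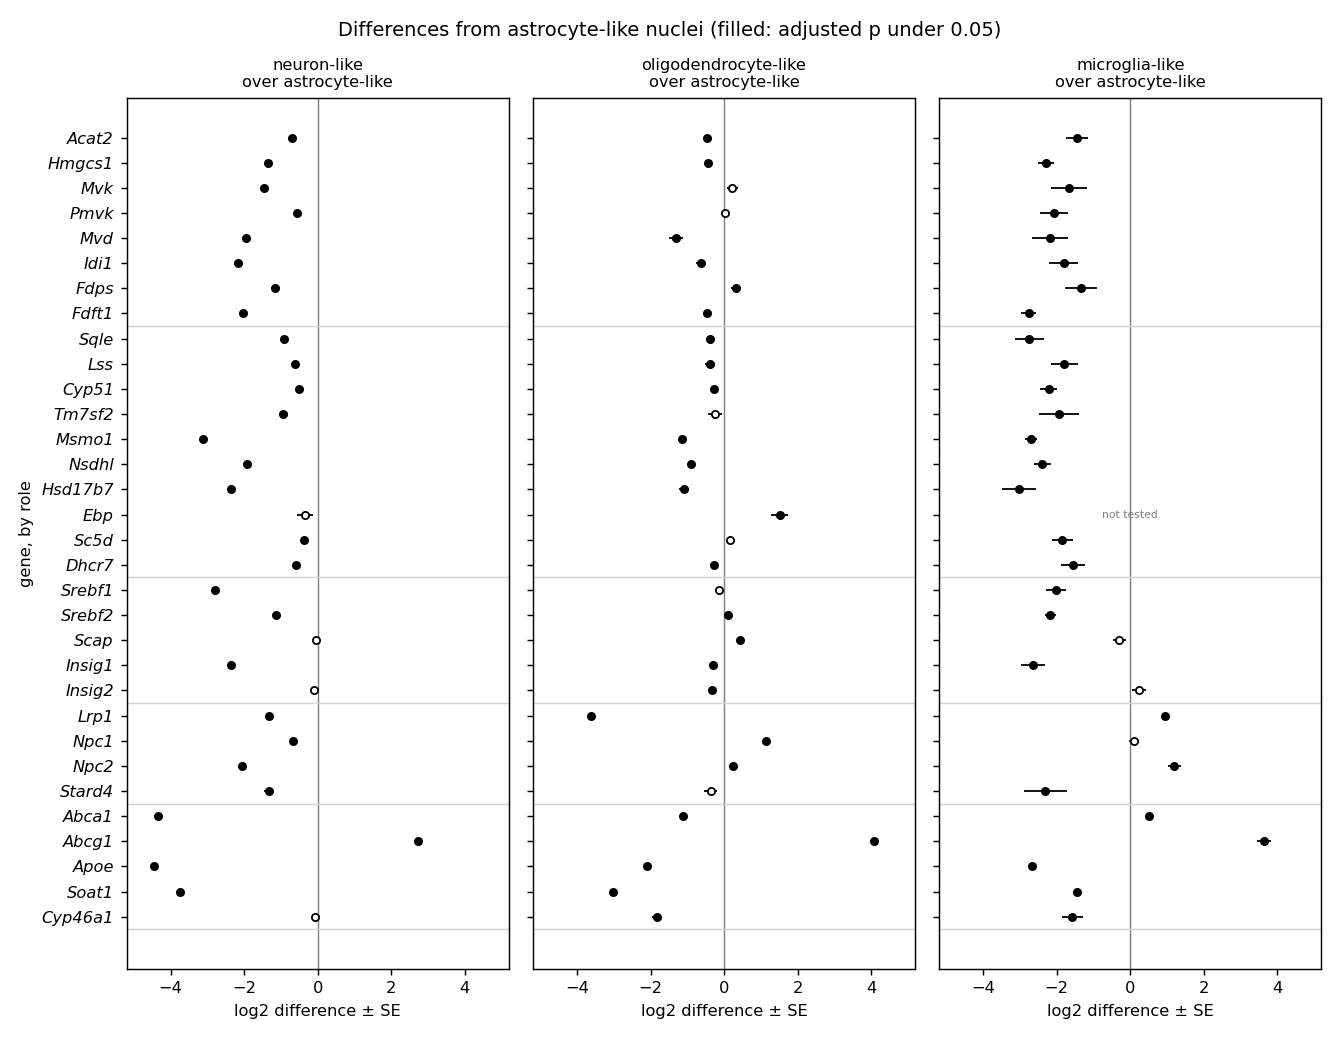
Log2 differences (± SE) of the 32 genes in neuron-like, oligodendrocyte-like and microglia-like nuclei over astrocyte-like nuclei, filled where the adjusted p was under 0.05. Most points lie left of 0 in all panels, and Abcg1 lies at 2.71, 4.09 and 3.63.

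Oligodendrocytes had lower levels than astrocytes for most synthesis genes and large differences both ways in uptake and export. Of 32 genes, 19 were lower and 7 higher in oligodendrocyte-like nuclei, where 37.5% of 13762 genes tested were lower and 33.9% higher (edgeR, adjusted p under 0.05), so the share of higher genes is below the background and that of lower ones above it. The count of 7 was 4 without replicate 1, without replicate 6 and with DESeq2. Of the 18 synthesis genes 12 were lower. Of 14 alternative runs, 11 lost the lower call of Dhcr7, 3 that of Lss, 2 that of Cyp51 and 1 that of Sqle. None lost that of the other lower synthesis genes. Msmo1 had 43.5, 47.5 and 53.8 CPM in oligodendrocyte-like nuclei, against 102, 113 and 145 CPM in astrocyte-like nuclei (log2 difference -1.15 ± 0.06), and Fdft1 differed by -0.45 ± 0.06. The classes did not overlap for either enzyme. Ebp was higher, with 3.87, 4.72 and 6.34 CPM in oligodendrocyte-like nuclei and 1.32, 1.84 and 2.32 CPM in astrocyte-like nuclei (1.51 ± 0.24; edgeR's quasi-likelihood test, adjusted p = 8.28e-07). Its samples did not overlap either, though it rests on 101 and 60 UMIs in all.

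In the same comparison Abcg1 had 73.3, 75.6 and 91.8 CPM in oligodendrocyte-like nuclei and 3.95, 4.75 and 6.57 CPM in astrocyte-like nuclei (log2 difference 4.09 ± 0.09; edgeR's quasi-likelihood test, adjusted p = 7.52e-29). Npc1, which moves cholesterol out of lysosomes, had 95.9, 100.3 and 113 CPM in oligodendrocyte-like nuclei and 43.5, 51.1 and 57.0 CPM in astrocyte-like nuclei (1.13 ± 0.06). Both were higher in 6 of 6 samples without overlap. Lrp1, a large receptor for apolipoprotein E, had 10.1, 13.1 and 16.0 CPM in oligodendrocyte-like nuclei and 157, 172 and 195 CPM in astrocyte-like nuclei (-3.61 ± 0.08), the lowest of the 13 classes. Soat1 had 14.3, 16.5 and 17.3 CPM in oligodendrocyte-like nuclei and 131, 146 and 151 CPM in astrocyte-like nuclei (-3.02 ± 0.07). The receptor and the esterifying enzyme were lower in every sample, also without overlap. Fdps, Srebf2 and Npc2 were called higher by small log2 differences of 0.32, 0.11 and 0.25, and 8 or more of the alternatives lost each call; Srebf2 had a lower median level in oligodendrocyte-like (113 CPM) than in astrocyte-like nuclei (115 CPM), and its sign turned to -0.02 without scaling factors.

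Against their precursors, oligodendrocytes were higher in 8 of 14 synthesis genes tested and in 4 of 5 SREBP genes. Of the 26 genes that passed the filter on low counts, 14 were higher and 3 lower in oligodendrocyte-like than in oligodendrocyte precursor-like nuclei, against 24.5% higher and 26.4% lower (50.9% in all) of 10022 genes tested (edgeR, adjusted p under 0.05). The 6 genes not tested were Mvd, Tm7sf2, Hsd17b7, Ebp, Stard4 and Cyp46a1. The filter can be met by the oligodendrocyte-like samples alone, so a gene may be tested only because it is high in them. The 14 of 26 is therefore no share of the 32 genes, nor the 8 of 14 one of all synthesis genes. Srebf2, the SREBP most tied to cholesterol synthesis, had 107, 113 and 116 CPM in oligodendrocyte-like nuclei and 27.0, 47.8 and 72.0 CPM in oligodendrocyte precursor-like nuclei (log2 difference 1.21 ± 0.15; edgeR's quasi-likelihood test, adjusted p = 4.4e-11). Msmo1 had 43.5, 47.5 and 53.8 CPM in oligodendrocyte-like nuclei and 0, 11.7 and 26.7 CPM in oligodendrocyte precursor-like nuclei (2.0 ± 0.27). Both genes separated the classes in every sample. Lrp1 went the other way, with 10.1, 13.1 and 16.0 CPM in oligodendrocyte-like nuclei and 224, 239 and 262 CPM in oligodendrocyte precursor-like nuclei (-4.18 ± 0.13). Apoe did not pass the test here (0.08 ± 0.12). The precursor class is small, with 41 to 75 nuclei per sample, and astrocyte markers stood in it at up to 41.0% of their astrocyte level, with a summed level of 4803 to 6372 CPM, against 733 to 890.3 CPM in oligodendrocyte-like nuclei; their part in the result was not tested.

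Microglia had the lowest summed synthesis level of the 13 classes and the highest levels of Lrp1, Npc2 and Abca1. Of 31 genes tested, 24 were lower and 4 higher in microglia-like than in astrocyte-like nuclei, against 34.5% lower and 28.1% higher of 12553 genes (edgeR, adjusted p under 0.05); Ebp was not tested. All 17 synthesis genes tested were lower. The filter on low counts can be met by the astrocyte-like samples alone, so some were tested through the class where they are high. In microglia-like nuclei the 18 synthesis genes rest on 293 UMIs together, and Sqle, for 1, was at 3.67 CPM. Fdft1 had 8.47, 11.9 and 15.5 CPM in microglia-like nuclei and 62.4, 67.4 and 78.5 CPM in astrocyte-like nuclei (log2 difference -2.76 ± 0.21). Srebf2 had 19.8, 29.9 and 48.4 CPM in microglia-like nuclei and 102, 115 and 119 CPM in astrocyte-like nuclei (-2.18 ± 0.15), also without overlap. The 4 higher genes were Abca1, Abcg1, Lrp1 and Npc2. Astrocyte markers stood in microglia-like nuclei at 3.45 to 11.4% of their astrocyte level, and their part in the lower levels was not tested.

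Lrp1 had 323, 426 and 484 CPM in microglia-like nuclei and 157, 172 and 195 CPM in astrocyte-like nuclei (log2 difference 0.95 ± 0.07; edgeR's quasi-likelihood test, adjusted p = 4.57e-28). Abca1 had 460.5, 480.2 and 521 CPM in microglia-like nuclei and 259, 279 and 288 CPM in astrocyte-like nuclei (0.50 ± 0.07). Npc2, the lysosomal partner of Npc1, had 47.4, 52.1 and 64.2 CPM in microglia-like nuclei and 15.5, 18.2 and 22.9 CPM in astrocyte-like nuclei (1.20 ± 0.17). In each case every microglia sample was above every astrocyte sample, and Lrp1, Abca1 and Npc2 had their highest level of the 13 classes in microglia. Abcg1 had 48.4, 77.7 and 104 CPM in microglia-like nuclei, again far above the astrocyte samples (3.63 ± 0.19). Several fitted differences are smaller than the CPM ratios here because the scaling factors (TMM) shift all genes: without them the median over all genes was 0.24 in this comparison, where it was -0.08 with them, and -0.13 for oligodendrocyte-like over astrocyte-like nuclei, where it was -0.00; in the other 7 comparisons it moved by less than 0.1.

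**Figure D4:**
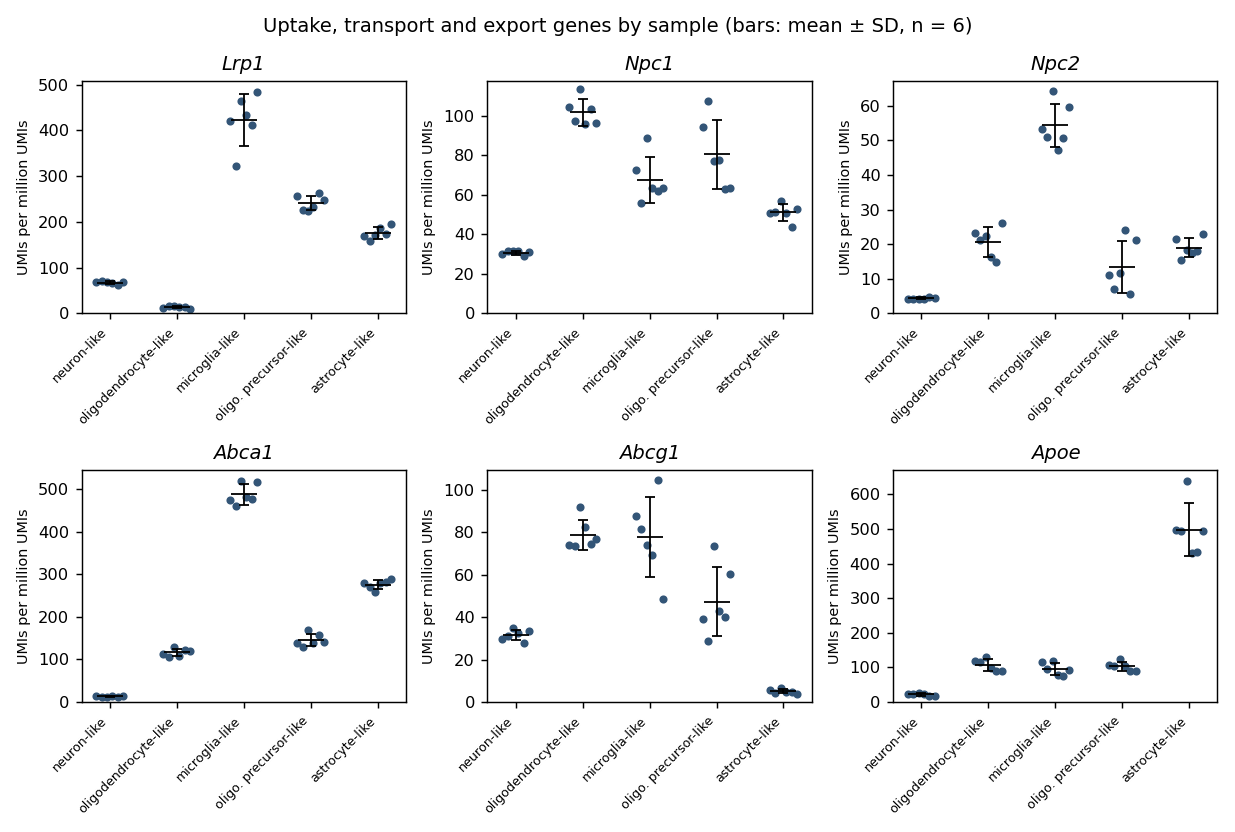
Level (CPM) of 6 uptake, transport and export genes in each of the 6 samples for 5 classes, with bars for the mean ± SD. Apoe stands apart in astrocyte-like nuclei, Lrp1, Npc2 and Abca1 in microglia-like nuclei, and Abcg1 stays at or below 6.57 CPM in astrocyte-like nuclei.

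Within neurons, the nuclei with the vesicular glutamate transporters had higher synthesis levels than GABAergic-like nuclei, of which 10214 of 14718 were lateral septum-like. Medial septum-like nuclei, also GABAergic-like, had a summed level of 259 ± 40.2 CPM, overlapping that of glutamatergic-like nuclei (271 ± 14.1 CPM). Of 32 genes, 19 were higher and 1 lower in glutamatergic-like than in GABAergic-like nuclei, where 12.5% of 16641 genes tested were higher and 16% lower (edgeR, adjusted p under 0.05). The median log2 difference of the 32 was 0.62, against -0.01 over all genes. The higher genes included 15 of the 18 synthesis genes, and the others (Mvk, Ebp and Dhcr7) had positive differences that missed the threshold. Hmgcs1, which makes HMG-CoA, had 27.3, 34.4 and 36.8 CPM in glutamatergic-like nuclei and 16.0, 18 and 19.4 CPM in GABAergic-like nuclei (log2 difference 0.94 ± 0.11; edgeR's quasi-likelihood test, adjusted p = 4.99e-06). Idi1 had 3.48, 6.71 and 10.3 CPM in glutamatergic-like nuclei and 2.16, 2.32 and 2.86 CPM in GABAergic-like nuclei (1.56 ± 0.25), the largest difference of the 32. Srebf2 had 67.5, 71.0 and 86.6 CPM in glutamatergic-like nuclei and 43.3, 46.6 and 51.2 CPM in GABAergic-like nuclei (0.65 ± 0.07). None of these 3 genes overlapped between the classes. Cyp46a1 was the gene that fell, with 6.81, 10.4 and 20.9 CPM in glutamatergic-like nuclei and 17.9, 18.6 and 19.6 CPM in GABAergic-like nuclei (-0.78 ± 0.17; edgeR's quasi-likelihood test, adjusted p = 0.00205), lower in 5 of 6 samples. The uptake receptor Lrp1 and the transporters Npc1 and Abcg1 did not pass the test.

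**Figure D5:**
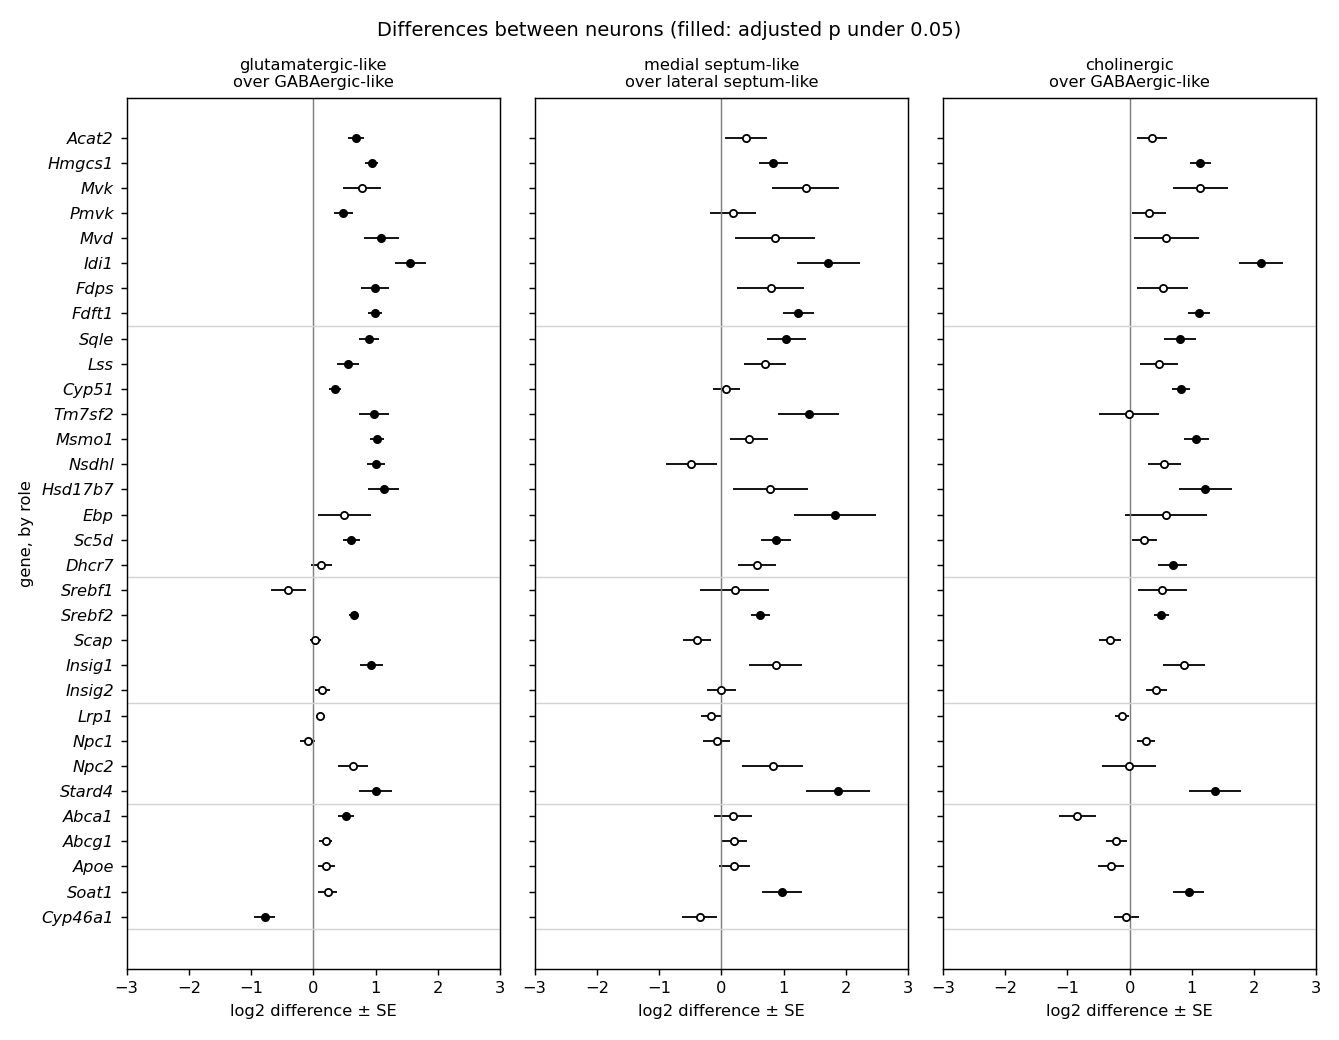
Log2 differences (± SE) of the 32 genes between neuron classes, filled where the adjusted p was under 0.05. The synthesis genes in the upper rows lie mostly right of 0 in all panels, with the widest errors for medial septum-like and cholinergic nuclei, the smaller classes.

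Medial septum-like nuclei, of which the samples held 10 to 27 each, showed fewer calls in the same direction. Of 32 genes, 10 were higher and 0 lower than in lateral septum-like nuclei, against 9.28% higher and 14.7% lower of 15262 genes tested (edgeR, adjusted p under 0.05; at unadjusted p under 0.05, 13 were higher and 0 lower, and DESeq2 called 10 and 0). Over all 15262 genes DESeq2 called 1408 higher and 1396 lower. Here and below, no share over all genes was taken at unadjusted p, so those counts have no background. Fdft1 had 22, 26.4 and 54.0 CPM in medial septum-like nuclei and 10.1, 12.5 and 13.6 CPM in lateral septum-like nuclei (log2 difference 1.24 ± 0.25; edgeR's quasi-likelihood test, adjusted p = 9.69e-06). Srebf2 had 55.6, 73.2 and 81.1 CPM in medial septum-like nuclei and 41.9, 44 and 48.3 CPM in lateral septum-like nuclei (0.62 ± 0.15). Both were higher in every sample without overlap, and they were the 2 of the 10 genes that passed in all alternatives run. Stard4, a carrier of free sterol, had 2.76, 6.17 and 20.1 CPM in medial septum-like nuclei and 1.70, 2.04 and 2.36 CPM in lateral septum-like nuclei (1.87 ± 0.51), on 16 UMIs in the medial class. With nuclei of 8000 to 30000 UMIs only, which left 5 of the 6 samples, 4 genes were called higher.

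The nuclei with both Chat and Slc5a7 had unlike synthesis levels on either side of the lateral septum-like rule, a split made after the data were seen. Of the 180, 123 (68.3%) also met the lateral septum-like rule and 57 did not. The 57 had 435 ± 99.99 CPM of Chat and 173 ± 32 CPM of the transcription factor Lhx8; the 123 had 193 ± 31.1 CPM of Chat and 31.2 ± 26.2 CPM of Lhx8 (SD, n = 6 samples). The summed synthesis level was 591 ± 134 CPM (393 to 797 over 6 samples) in the 57 and 169.9 ± 46.4 CPM (97.6 to 218) in the 123, against 154 ± 7.63 CPM in lateral septum-like nuclei. The samples of the 57 lay above all samples of the 123 and of every class but the astrocyte-like one, whose range of 452 to 559 CPM falls inside theirs. Per nucleus the 57 held 11.8 and the 123 held 3.45 synthesis UMIs on average, and the sums rest on 603 and 424 UMIs.

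Taken as 1 class of 180, the cholinergic nuclei had 11 of 32 genes higher and 0 lower than GABAergic-like nuclei, against 4.45% higher and 6.49% lower of 16200 genes tested (edgeR, adjusted p under 0.05; at unadjusted p under 0.05, 15 were higher and 1 lower, and DESeq2 called 10 and 0). Over all 16200 genes DESeq2 called 773 higher and 699 lower. With the 57 alone, which left 4 to 14 nuclei per sample where 10 or more were otherwise asked for, 15 were higher and 1 lower, against 4.95% and 9.65% of all genes tested, and the median log2 difference of the 32 was 1.03, against -0.21 over all genes. Without replicate 6 the class of 180 gave 6 higher genes and 1 lower, and with nuclei of 8000 to 30000 UMIs it gave 7 higher; cholinergic nuclei held 19729 ± 2414 UMIs each and GABAergic-like nuclei 14689 ± 1399, and the part of depth was not tested further. Idi1 had 5.85, 11.0 and 16.1 CPM in the 180 cholinergic nuclei and 2.16, 2.32 and 2.86 CPM in GABAergic-like nuclei (log2 difference 2.11 ± 0.35; edgeR's quasi-likelihood test, adjusted p = 6.14e-06). Hmgcs1 had 21.4, 42.8 and 48.4 CPM in cholinergic nuclei and 16.0, 18 and 19.4 CPM in GABAergic-like nuclei (1.13 ± 0.17). Cyp51 had 35.0, 48.8 and 64.5 CPM in cholinergic nuclei and 25.0, 27.2 and 31.7 CPM in GABAergic-like nuclei (0.83 ± 0.14). The groups did not overlap for these 3 genes, and with the 57 nuclei alone the differences were 3.22 ± 0.45 for Idi1, 2.18 ± 0.23 for Hmgcs1 and 1.60 ± 0.22 for Cyp51. Srebf2 followed, with 0.51 ± 0.12 for the 180 and 1.36 ± 0.18 for the 57, where its level was 144 ± 46.9 CPM, against 38.2 ± 12.7 CPM in the 123. Cyp46a1 was the gene lower with the 57 alone (-1.48 ± 0.49; edgeR's quasi-likelihood test, adjusted p = 0.0217), at 7.88 ± 6.81 CPM, against 22.5 ± 5.18 CPM in the 123. Its level in the 57 rests on 8 UMIs, with 0 in replicates 1 and 4. Soat1, called higher for the 180 (0.95 ± 0.25), was at 0.47 without replicate 6 and at -0.08 ± 0.51 with the 57, and neither passed the test.

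Against Maf Elavl2 interneurons, which lack Chat and Slc5a7 by the rule, 3 of 18 genes tested were higher and 0 lower in cholinergic nuclei (7.91% higher and 8.83% lower of 7817 genes; edgeR, adjusted p under 0.05; at unadjusted p under 0.05, 9 and 0, and DESeq2 called 1 and 0). They were Fdft1, Hmgcs1 and Cyp51. Over all 7817 genes DESeq2 called 401 higher and 465 lower. Fdft1 had 22.2, 32.7 and 44.5 CPM in cholinergic nuclei and 14, 16.0 and 18.8 CPM in Maf Elavl2 interneurons, without overlap (log2 difference 0.98 ± 0.20; edgeR's quasi-likelihood test, adjusted p = 0.00169). Leaving out replicate 2 or replicate 4 gave 5 higher genes. Without nuclei of either class that met the lateral septum-like rule, 4 of 8 genes tested were higher and 0 lower, against 7.93% and 9.01% of 5029 genes. The filter on low counts can be met by 1 class alone, so a gene may be tested only because it is high in cholinergic nuclei. Fdft1 was at 19.9 ± 4.58 CPM in these interneurons and 67.0 ± 21.7 CPM in these cholinergic nuclei. Hmgcs1 was at 22.6 ± 5.02 and 97.0 ± 33.5 CPM. The 4 of 8 is therefore no share of the 32 genes. The Maf Elavl2 interneurons themselves had few calls against lateral septum-like nuclei: 2 of 32 genes were higher and 0 lower, against 7.82% and 7.71% of 15664 genes (edgeR, adjusted p under 0.05; at unadjusted p under 0.05, 7 and 0, and DESeq2 called 2 and 0). These were Msmo1 (0.56 ± 0.16) and Hmgcs1 (0.44 ± 0.13 on the log2 scale). Both calls were lost without replicate 2 and without replicate 4, and without interneurons that met the lateral septum-like rule 1 other gene, Fdft1, was higher and 0 lower, against 7.02% and 8.27% of all genes. With all interneurons kept, DESeq2 called 1141 higher and 974 lower of all 15664 genes. Of the 411 interneurons, 197 (47.9%) also met the lateral septum-like rule. Their summed synthesis level was 207 ± 20.7 CPM in the 214 nuclei outside that rule and 183 ± 24.1 CPM in the 197 inside it, and these ranges overlap.

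The SREBP genes did not move as a block. Insig1 had its highest level in astrocyte-like nuclei (28.9 ± 2.91 CPM) and 5.31 ± 0.292 CPM in neuron-like nuclei, and Srebf1, the SREBP tied to fatty acid synthesis, 28.5 CPM in astrocyte-like and 2.78 CPM in glutamatergic-like nuclei, its lowest class. Scap and Insig2 were nearly level: the ratio of their highest to lowest class was 1.79 and 1.92, the smallest of the 32 genes. Across the 13 classes Insig1 (Pearson r = 0.92), Srebf2 (r = 0.76) and Stard4 (r = 0.36) were the genes outside synthesis whose log2(CPM + 1) followed the mean of the synthesis genes most closely, and Abcg1 the least (r = -0.40). These correlations are descriptions over 13 class means that share libraries and differ in depth.

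Stard4 was highest in endothelial-like nuclei, at 8.94, 24.6 and 40.6 CPM as lowest, median and highest sample, on 37 UMIs. Abca1 had the widest range of the 32 genes, 66.2 times between microglia-like and striatal-like nuclei, followed by Lrp1 with 32 times between microglia-like and oligodendrocyte-like nuclei and Apoe with 29.0 times between astrocyte-like and cholinergic nuclei.

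A list of 22 further sterol genes gave calls in both directions. In oligodendrocyte-like over astrocyte-like nuclei 11 were higher and 9 lower, in neuron-like over astrocyte-like nuclei 8 and 9, and in microglia-like over astrocyte-like nuclei 10 and 9 (edgeR, adjusted p under 0.05), where 71.5%, 81.2% and 62.6% of all genes were called in either direction. Mylip, a ubiquitin ligase that removes lipoprotein receptors, had 319, 401 and 425 CPM in microglia-like nuclei and 4.51, 5.40 and 6.91 CPM in astrocyte-like nuclei (log2 difference 5.80 ± 0.12; edgeR's quasi-likelihood test, adjusted p = 4.37e-108). Cyp7b1, an oxysterol hydroxylase, had 14.9, 19.7 and 24.2 CPM in oligodendrocyte-like nuclei and 366, 402 and 408 CPM in astrocyte-like nuclei (-4.19 ± 0.07). Cyp27a1, the sterol 27-hydroxylase, had 57.2, 66.3 and 85.1 CPM in oligodendrocyte-like nuclei and 5.73, 7.45 and 10.3 CPM in astrocyte-like nuclei (3.25 ± 0.09). These 3 genes did not overlap between the classes compared. In glutamatergic-like over GABAergic-like nuclei 3 of 21 tested were higher and 5 lower, where 28.4% of all genes were called in either direction.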

How the data were processed

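Single-nucleus RNA was sequenced from 6 libraries of wild type mouse septal area with 10x 3′ chemistry. The deposited files hold raw counts of UMIs per gene and barcode, made by the authors with Cell Ranger (3.1.0 per the submitters' processing notes, 5.0.0 per the file headers) and STAR; no source used here gives the genome build. Barcodes with 500 or more genes were kept. Doublets were not called; a nucleus joined a class only with 3 or more of its markers and 2 times as many as of any other class. Counts were summed per sample and class, and levels are UMIs per 1000000 UMIs (CPM). Libraries shared at most 0.433% of barcodes.

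Classes were compared with edgeR 4.0.16 in R 4.3.3 (quasi-likelihood test, TMM factors, filterByExpr, Benjamini-Hochberg over all genes tested). The sample was a block, since both classes come from the same 6 libraries. DESeq2 1.42.0 was an alternative. Nothing says that the samples came from separate animals, so the p-values cover the spread of these 6 samples alone, and that spread may be technical. The genes named were the members, and other sterol genes, with the largest called changes; further members were named by role, with their values known. The scripts were tested on simulated data. The 32 genes, the lists and the comparisons were chosen with earlier results of these data known. Errors are SDs over samples or SEs of the fit. Classes needed 10 or more nuclei in a sample, or 4 or more where nuclei with lateral septum markers were left out.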

Additional observations from a re-analysis of the deposited data

Results flagged for a closer look

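Of 104 class levels tested, 6 had a sample far from the other 5, and chance flags about 1 in 20 such groups. Apoe in astrocyte-like nuclei was 640.1 CPM in replicate 3, with the others between 432 and 496 CPM. Srebf2 in astrocyte-like nuclei was 102 CPM in replicate 2, below the others at 113 to 119 CPM, while Srebf2 in glutamatergic-like nuclei was 86.6 CPM in the same replicate, above the others at 67.5 to 72.9 CPM. Fdft1 in medial septum-like nuclei was 54.0 CPM in replicate 6, with the others between 22 and 33.3 CPM. Sqle in ependymal-like nuclei was 40.7 CPM in replicate 6, with the others between 17.2 and 24.6 CPM. The summed synthesis level of oligodendrocyte-like nuclei was 332 CPM in replicate 5, with the others between 309.7 and 317 CPM.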

How the results depend on the processing

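All 28 calls of neuron-like over astrocyte-like nuclei were made under every alternative run. Elsewhere a call counted as kept if no alternative that tested the gene lost it. Kept calls were 26 of 28 for microglia-like and 17 of 26 for oligodendrocyte-like over astrocyte-like nuclei. Of these, some genes were filtered out of an alternative. For microglia-like nuclei Stard4 was tested in 12 alternatives, and Mvk and Tm7sf2 in 13, where Soat1 had 14. Ebp was tested in 13 for oligodendrocyte-like nuclei. Kept calls were 13 of 17 for oligodendrocyte-like over precursor-like and 12 of 20 for glutamatergic-like over GABAergic-like nuclei. They were 2 of 10 for medial over lateral septum-like and 5 of 11 for cholinergic over GABAergic-like nuclei. For cholinergic over Maf Elavl2 they were 1 of 3, and for Maf Elavl2 over lateral septum-like nuclei 0 of 2. For oligodendrocyte-like over astrocyte-like nuclei the 7 higher genes became 4 without scaling factors (chosen after seeing the data), 4 with DESeq2, 3 with the strict gate, 4 in the depth window and 4 to 6 without 1 replicate; Srebf2 turned to -0.0199 without scaling factors. For medial septum-like nuclei 10 became 4 in the depth window, which left 5 samples. For cholinergic over GABAergic-like nuclei, 11 higher became 7 in the depth window and 6 to 11 without 1 replicate. There 0 lower became 1 without the low-count filter, with the other cholinergic gate (246 nuclei) and without nuclei carrying lateral septum markers, and 0 to 1 without 1 replicate; Soat1 turned to -0.0804 without those nuclei. Against Maf Elavl2 interneurons, 3 higher became 6 and 0 lower became 1 without the filter, 3 higher became 1 with DESeq2, and 3 to 5 without 1 replicate. For these interneurons over lateral septum-like nuclei, 2 became 1 without the filter (Msmo1), 1 in the depth window (Hmgcs1) and 1 without lateral septum markers (Fdft1, with both first calls lost), 0 with the strict or the Maf Elavl2 gate, and 0 to 3 without 1 replicate. With the strict gate the summed level was 306 CPM in oligodendrocyte-like and 107 CPM in microglia-like nuclei. Without the replicate block, cholinergic over GABAergic-like nuclei gave 1 lower gene. The causes were not tested. The strict gate gave no value for the 4 comparisons with the smallest classes.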
